A study of Mus musculus with 16 samples.

Results

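The Dlx genes are the mouse relatives of the fly gene Distal-less, a family of homeobox genes that lie in the genome as 3 pairs, Dlx1-Dlx2, Dlx3-Dlx4 and Dlx5-Dlx6, with the genes of each pair tail to tail. The members were these 6 genes of 22372 protein-coding genes, chosen by name. For each gene, the peaks with any base within 2500 bp of one of its protein-coding start sites (its promoter window) were collected from 10 peak lists, and for each pair also the peaks over the span from the outer end of one gene to the outer end of the other. Coordinates are those of mm9, with the GENCODE M1 annotation.

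The lists came from ChIP-seq of mouse 46C embryonic stem cells (ES), a line that carries a Sox1-GFP reporter of neural fate, and of neural progenitor cells (NPC) made from them and collected at day 6 of differentiation in suspension. There were 8 lists for the histone marks H2AK119ub1 and H3K27me3, each at both stages and in both genotypes, wild type and PCGF5-deficient (here also called deficient), and 2 lists for Flag-PCGF5, 1 per stage. Each group held 1 library, so no value has a replicate error, and no difference could be tested. The labels give the genotype of the PCGF5-deficient cells as shPCGF5, a short hairpin RNA against Pcgf5. According to the study's methods, such hairpins were delivered by lentivirus with puromycin selection and clones were picked, and peak lists cannot show whether the protein was lost. The Flag libraries, labelled wild type, came from ES cells with a 3×Flag tag knocked in at Pcgf5. ES were grown on inactivated mouse embryo fibroblasts, the feeders, in medium with 2i and LIF. For the histone marks nucleosomes were released by micrococcal nuclease before a light formaldehyde fixation, and for Flag fixed chromatin was sonicated, so peak widths of the Flag lists cannot be set against those of the marks. Between 3845 and 14759 peaks made up a histone list, against 653 in the Flag list of ES and 12013 in that of NPC. The read depth of the libraries is unknown, and a missing peak does not show that a mark or protein is missing.

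H2AK119ub1 is the ubiquitin mark that Polycomb repressive complex 1 places on histone H2A, and H3K27me3 is the methyl mark that Polycomb repressive complex 2 places on histone H3. Both mark silent developmental genes, and PCGF5 is a subunit of a variant form of the first complex. Dlx1, Dlx2, Dlx5 and Dlx6 act in the specification and migration of forebrain interneurons, Dlx5 and Dlx6 also pattern the jaw and limb, and Dlx3 and Dlx4 are known from the placenta, with Dlx3 also needed in epidermis and bone.

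In short stretches of the spans the peaks of most histone lists coincided. They are shown here because they were called in nearly every histone list, with each CpG in capitals and on the forward strand. The Dlx1-Dlx2 stretch, chr2:71379130-71379292, lies between the genes, and the Dlx3 stretch, chr11:94982718-94982860, lies in an intron of Dlx3. Both were covered in all 8 histone lists. In Dlx5-Dlx6 no base was covered in all 8, and the longest stretch in 7, at chr6:6825517-6825709 between the genes, lacked only H3K27me3 of wild type ES.
Dlx1-Dlx2: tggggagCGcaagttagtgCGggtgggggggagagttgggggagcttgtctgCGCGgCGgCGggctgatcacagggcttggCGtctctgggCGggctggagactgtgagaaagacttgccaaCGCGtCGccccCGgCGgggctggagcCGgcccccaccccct
Dlx3-Dlx4: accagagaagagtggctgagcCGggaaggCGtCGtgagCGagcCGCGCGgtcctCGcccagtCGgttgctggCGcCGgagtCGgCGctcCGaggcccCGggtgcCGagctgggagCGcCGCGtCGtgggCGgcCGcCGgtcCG
Dlx5-Dlx6: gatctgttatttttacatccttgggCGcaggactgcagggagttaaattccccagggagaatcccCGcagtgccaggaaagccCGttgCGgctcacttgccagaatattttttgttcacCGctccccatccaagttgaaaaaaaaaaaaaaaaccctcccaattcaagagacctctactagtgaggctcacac

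The first of these had 14 CpG in 163 bp and a GC content of 71.2%. The Dlx3 stretch had 24 CpG in 143 bp and a GC content of 76.9%. The stretch of Dlx5-Dlx6 had 5 CpG in 193 bp and a GC content of 47.7%, the lowest of the 3.

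The next sequences are the opposite case, in which H2AK119ub1 was called in wild type NPC and not in deficient NPC while H3K27me3 was called in both. The Dlx1-Dlx2 example is the middle of a run of 800 bp and lies at chr2:71374683-71374982, in an intron of the antisense RNA gene Dlx1as. That of Dlx5-Dlx6 is the middle of a run of 1076 bp and lies at chr6:6815819-6816118, in introns of Dlx6 and of the noncoding gene Dlx6os1. No ES list had a peak over the whole of either. The longest such run of Dlx3-Dlx4, 165 bp at chr11:94982553-94982717 in the Dlx3 intron and not printed, was covered by H2AK119ub1 in both ES lists and held 5 CpG.
Dlx1-Dlx2: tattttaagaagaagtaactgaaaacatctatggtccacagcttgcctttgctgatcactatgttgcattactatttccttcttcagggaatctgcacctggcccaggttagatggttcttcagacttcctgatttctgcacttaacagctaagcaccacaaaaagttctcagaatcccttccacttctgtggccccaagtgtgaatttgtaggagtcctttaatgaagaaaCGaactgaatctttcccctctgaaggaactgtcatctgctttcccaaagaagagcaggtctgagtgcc
Dlx5-Dlx6: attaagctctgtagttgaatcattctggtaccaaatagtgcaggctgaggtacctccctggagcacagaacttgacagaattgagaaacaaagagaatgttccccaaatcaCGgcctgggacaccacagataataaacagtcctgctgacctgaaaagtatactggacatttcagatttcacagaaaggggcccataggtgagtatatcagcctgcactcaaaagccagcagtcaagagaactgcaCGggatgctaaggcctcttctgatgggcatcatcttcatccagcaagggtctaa

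These stretches held 1 and 2 CpG in 300 bp each, with GC contents of 43.3% and 46.3%. Over the whole Dlx1-Dlx2 span the bases under H2AK119ub1 had a GC content of 52.8% in wild type NPC and 59.4% in deficient NPC. Over Dlx5-Dlx6 these values were 48.7% and 56.6%. Within NPC the H2AK119ub1 peaks of deficient cells thus lay on a more GC-rich part of both spans than those of wild type cells. Among the ES lists the H2AK119ub1 bases of these spans were instead more GC-rich in wild type cells. Over Dlx1-Dlx2 the GC content was 59.8% in wild type and 56.7% in deficient ES, and over Dlx5-Dlx6 56.8% and 49.8%. For Dlx3-Dlx4 the deficient ES value was the higher, 57.2% against 55.8%, and so was that of deficient NPC, 59.1% against 53.6%. In every one of these comparisons the list with fewer covered bases had the higher GC content. In Dlx1-Dlx2, for example, 3398 and 5315 bp were covered in wild type and deficient ES, and 9589 and 2997 bp in NPC. Genotype and breadth of coverage thus cannot be told apart in these GC contents. The promoter windows of the 6 genes had GC contents of 50.3% to 55.0%, against a median of 46.9% over all genes, and the ratio of observed to expected CpG was 0.406 to 0.675 against a median of 0.320.

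All 6 genes had a peak of both marks within 2500 bp of a start site in wild type cells of both stages, and none had a Flag-PCGF5 peak there. Within 1000 bp, H2AK119ub1 was not called at Dlx4 in wild type ES or at Dlx2 in wild type NPC. For H2AK119ub1 a peak lay in the promoter window of 6 of 6 Dlx genes in wild type ES, where 6.83% of all genes had one. In deficient ES it was 5 of 6 against 6.06% of all genes, with Dlx4 lacking a peak. Wild type NPC had 6 of 6 against 5.04%, and deficient NPC 6 of 6 against 4.22%. H3K27me3 was called at 6 of 6 genes in wild type ES (13.5% of all genes), deficient ES (13.0%), wild type NPC (15.9%) and deficient NPC (15.6%).

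Flag-PCGF5 was called at 0 of 6 Dlx genes in ES, where 0.814% of all genes had a peak, and at 0 of 6 in NPC, where 14.1% did. The 3 spans also held no Flag-PCGF5 peak, while 2.83% of 1699 convergent neighbouring gene pairs of at most 52350 bp held one in ES and 31.2% in NPC. The nearest Flag-PCGF5 peak of NPC lay 6.34 kb upstream of the Dlx3 start, with a fold enrichment over background of 2.23. For the other pairs it lay 46.6 kb from Dlx2 and 73.8 kb from Dlx5-Dlx6, and in ES no peak lay within 515 kb of any pair. With only 6 genes and 3 spans, counts of 0 are near these shares and do not set the Dlx genes apart. Marks placed by Polycomb complexes were called at these genes, and no tagged PCGF5 was called within a span in either list.

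**Figure D1:**
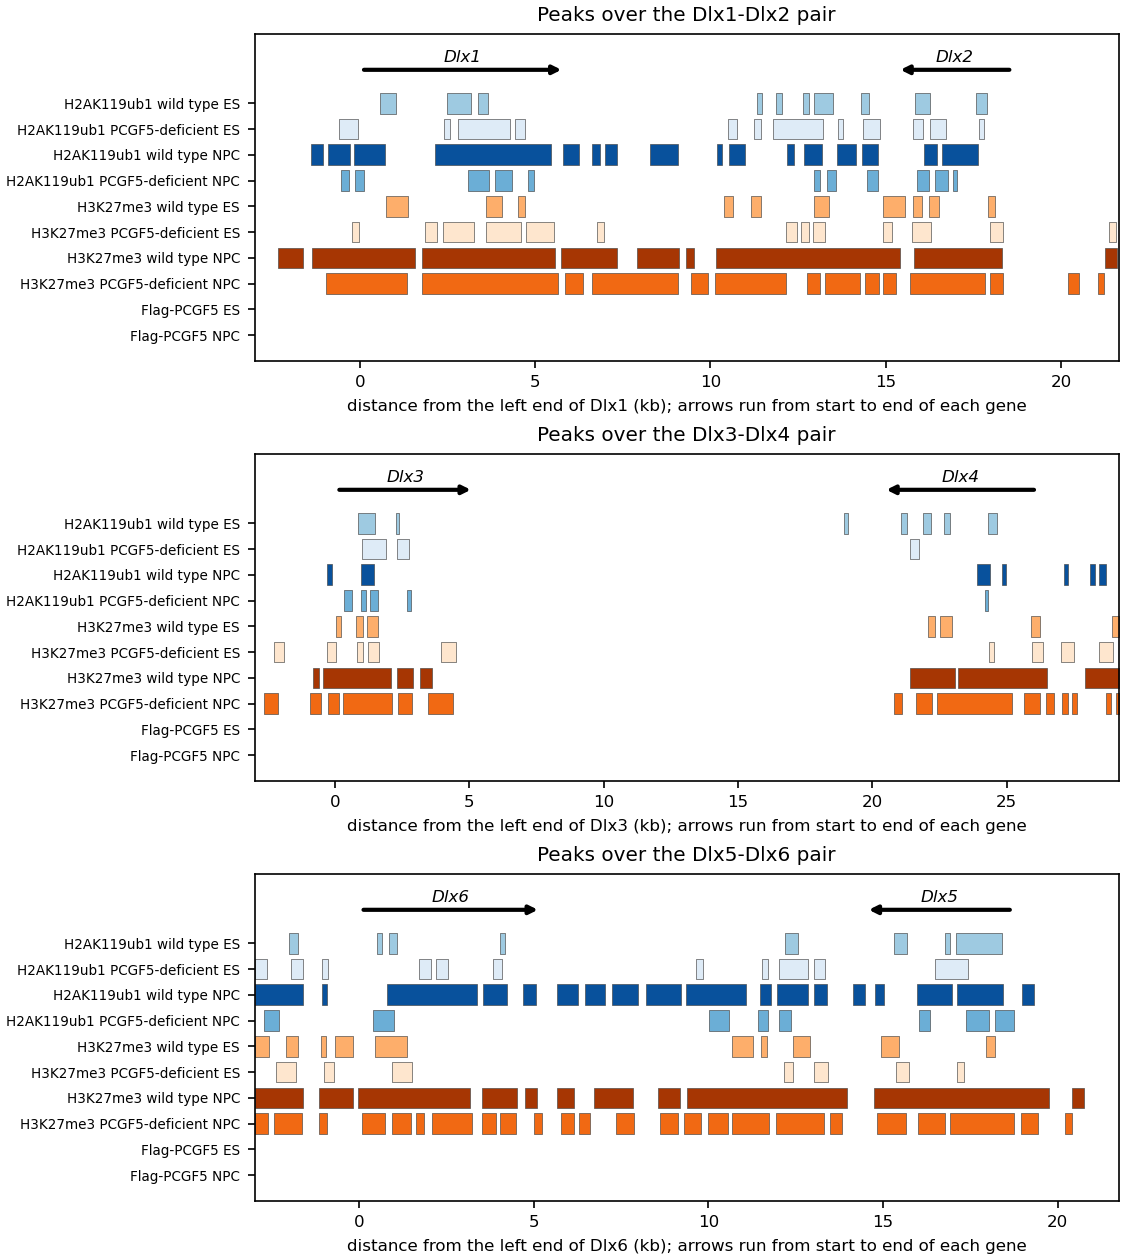
Peaks of the 10 lists (rows, 1 library each) over the 3 Dlx pairs, against distance in kb from the left end of the left gene, with 3 kb shown on either side. H3K27me3 of NPC fills most of the Dlx1-Dlx2 and Dlx5-Dlx6 spans, H2AK119ub1 of wild type NPC does so in part, the middle of Dlx3-Dlx4 holds 1 peak in all, and the Flag rows are empty.

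The measure used for each gene was the number of bases of its promoter window covered by peaks, since a broad domain may be called as 1 peak or several. The windows measured 5001 bp, except for Dlx1, with 4 start sites and 7668 bp, and Dlx6, with 2 start sites and 5464 bp. At Dlx1, an interneuron transcription factor gene, H2AK119ub1 covered 1447 bp in wild type ES, 2497 bp in deficient ES, then 4873 bp in wild type NPC and 1718 bp in deficient NPC. H3K27me3 at Dlx1 covered 1281, 2855, 7070 and 5722 bp in the same order. Dlx1, with the longest window, had the most covered bases of the 6 genes in both NPC lists of each mark and in deficient ES for both marks. By share of the window Dlx5 had more H2AK119ub1 than Dlx1 in deficient NPC, 26.0% against 22.4%.

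Dlx2, its partner and an activator of the GABA synthesis genes, had less of both marks. H2AK119ub1 covered 423, 603, 1336 and 622 bp of the Dlx2 window, in the same order. H3K27me3 covered 466, 507, 2157 and 2475 bp. In none of the 8 lists did a peak cross the Dlx2 start site itself, the nearest edges lying 295 bp to 1.60 kb away and inside the gene.

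Dlx3, a regulator of epidermis and bone, was the gene with the least movement in H2AK119ub1, with 761, 1090, 681 and 764 bp. Its H3K27me3 covered 841, 1289, 2912 and 3241 bp. At Dlx4, H2AK119ub1 covered 333 bp in wild type ES, none in deficient ES, then 1200 bp in wild type NPC and 138 bp, from 1 peak, in deficient NPC. H3K27me3 at Dlx4 covered 332, 1342, 3562 and 2812 bp. Dlx4 thus had the fewest H2AK119ub1 bases in 3 of the 4 lists, but not the fewest H3K27me3 bases in NPC.

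Dlx5 and Dlx6, which pattern the lower jaw, lay far apart in the H3K27me3 bases of their promoter windows in ES. H2AK119ub1 at Dlx5 covered 1478, 934, 2366 and 1302 bp. H3K27me3 at Dlx5 covered only 252 bp in wild type ES and 201 bp in deficient ES, against 3842 and 3048 bp in NPC. At Dlx6 H2AK119ub1 covered 637, 1192, 3208 and 795 bp, and H3K27me3 covered 1929, 1416, 4877 and 3401 bp. In wild type ES the Dlx6 window therefore had the most H3K27me3 of the 6 windows and the Dlx5 window the least. Over the whole genes in place of the windows the contrast was small. There H3K27me3 of wild type ES covered 897 bp (17.1%) of Dlx6 and 749 bp (17.5%) of Dlx5, against 1281 bp of Dlx1.

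**Figure D2:**
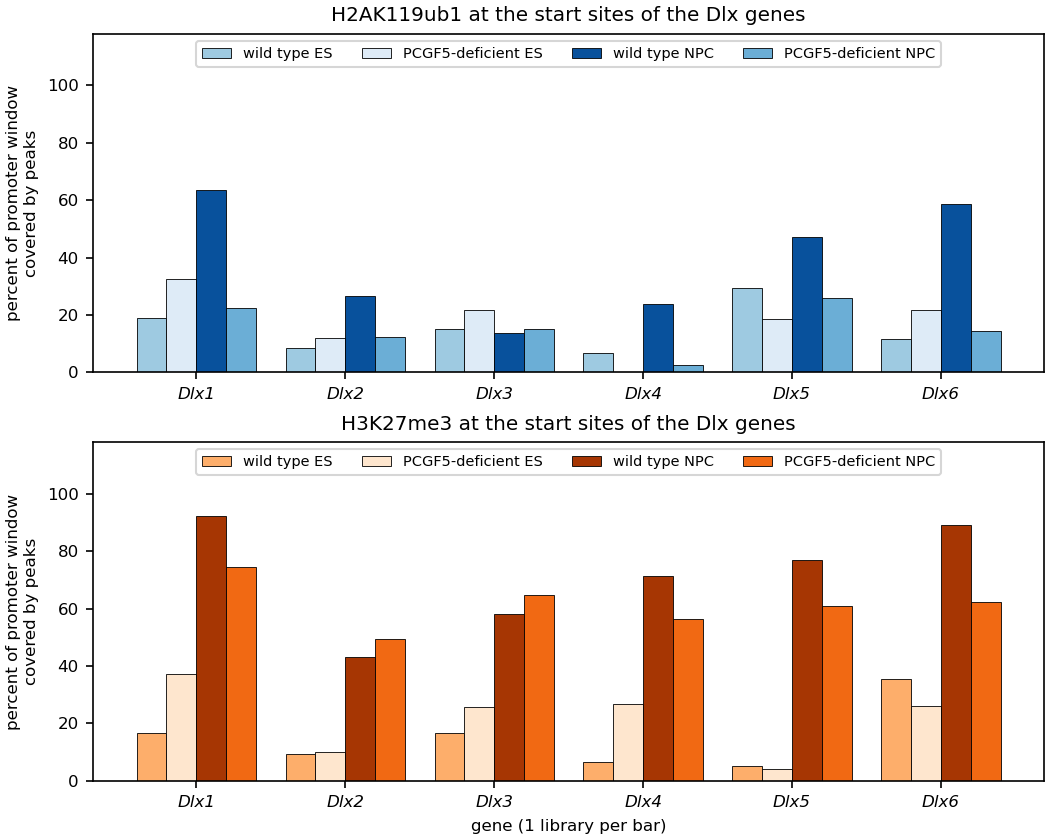
Percent of the promoter window of each Dlx gene covered by peaks of H2AK119ub1 (top) and H3K27me3 (bottom), 1 bar per library and no error bars because each group had 1 library. Wild type NPC bars are the tallest of H2AK119ub1 at every gene except Dlx3, and both NPC bars of H3K27me3 exceed both ES bars at all 6 genes.

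The enrichment that the peak caller gave was moderate. Peaks at the Dlx genes had folds over background of 4.26 to 5.38 in wild type ES, 2.85 to 5.49 in deficient ES, then 3.09 to 10.3 in wild type NPC and 3.54 to 7.79 in deficient NPC for H2AK119ub1. For H3K27me3 the folds were 3.02 to 7.13, 3.91 to 8.54, 2.76 to 12.4 and 2.65 to 8.73. The highest fold of H2AK119ub1, 10.3, belonged to a peak of 2566 bp over Dlx6 in wild type NPC, and that of H3K27me3, 12.4, to a peak of 5013 bp over Dlx5 in wild type NPC. A fold is relative to the background of its own library, so these values do not rank the lists.

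Between ES and NPC the H3K27me3 at the Dlx genes was broader in NPC. In wild type cells the 6 windows together had 5101 bp covered in ES and 24420 bp in NPC, which is 4.79-fold more (log2 2.26), and over all genes the log2 ratio was 1.41. In deficient cells the values were 7610 and 20699 bp, 2.72-fold more (log2 1.44), against 1.24 over all genes. At least 2-fold more bases were covered in NPC at 6 of 6 Dlx genes in wild type cells, as at 60.3% of the genes marked in either list. This was also so at 6 of 6 in deficient cells, against 57.1%. The largest ratio was that of Dlx5, 15.2-fold in both genotypes, and the smallest in wild type cells that of Dlx6, 2.53-fold.

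H2AK119ub1 was broader in NPC than in ES in wild type cells, while in deficient cells the direction depended on the window. In wild type cells the windows had 5079 bp covered in ES and 13664 bp in NPC, 2.69-fold more (log2 1.43), where all genes together gave a log2 ratio of 0.24. Dlx1, Dlx2, Dlx4 and Dlx6 had at least 2-fold more bases covered in NPC, 4 of 6, against 35.3% of the marked genes. Median log2 ratios were 1.71 for the Dlx genes and -1.26 for all marked genes, in which a gene without a peak in one list ranks beyond any ratio. In deficient cells the windows had 6316 bp covered in ES and 5339 bp in NPC (log2 -0.24, all genes -0.53), and 1 of 6 genes, Dlx4, had at least 2-fold more in NPC, against 26.5%. With windows of 1000 bp in place of 2500 bp this last ratio was positive, with a log2 of 0.61.

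deficient NPC had less H2AK119ub1 at the Dlx genes than wild type NPC and nearly as much H3K27me3. The H2AK119ub1 bases were 13664 in wild type and 5339 in deficient NPC, 0.391 times as many (log2 -1.36), and over all genes the log2 ratio was -0.93. Dlx1, Dlx2, Dlx4 and Dlx6 had at least 2-fold fewer, 4 of 6, against 51.8% of the marked genes, so the count of Dlx genes was near the background. Median log2 ratios were -1.30 for the Dlx genes and -1.21 for all marked genes. Dlx4 had the lowest ratio, 0.115, followed by Dlx6 with 0.248 and Dlx1 with 0.353. Dlx3 had slightly more bases in deficient NPC, with a ratio of 1.12.

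For H3K27me3 the bases were 24420 in wild type and 20699 in deficient NPC (log2 -0.24, all genes -0.35). No Dlx gene differed by 2-fold: 0 of 6 were lower, where 33.4% of the marked genes were, and 0 of 6 were higher, where 22.9% were. Ratios ran from 0.697 at Dlx6 to 1.15 at Dlx2.

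In ES the Dlx promoter windows as a group had more bases of both marks in deficient cells, though not at every gene. H2AK119ub1 covered 5079 bp in wild type and 6316 bp in deficient ES (log2 0.31, all genes -0.15), with more bases at Dlx1, Dlx2, Dlx3 and Dlx6 and fewer at Dlx4 and Dlx5. With windows of 1000 bp the group had 2885 and 1877 bp (log2 -0.62), so the direction depended on the width of the window. At Dlx5 the peak of deficient ES lay outside the narrower window, where wild type ES had 667 bp. Of the 6 genes 1, Dlx4, had at least 2-fold fewer bases, against 43.3% of the marked genes. H3K27me3 covered 5101 bp in wild type and 7610 bp in deficient ES (log2 0.58, all genes -0.18). Dlx1 and Dlx4 had at least 2-fold more, 2 of 6, against 27.6% of the marked genes, with ratios of 2.23 and 4.04. Dlx5 and Dlx6 had fewer H3K27me3 bases in deficient ES, with ratios of 0.798 and 0.734. With windows of 1000 bp the H3K27me3 log2 ratio of the group was 0.16. Over the 3 spans H3K27me3 covered 8287 bp in wild type and 8610 bp in deficient ES.

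**Figure D3:**
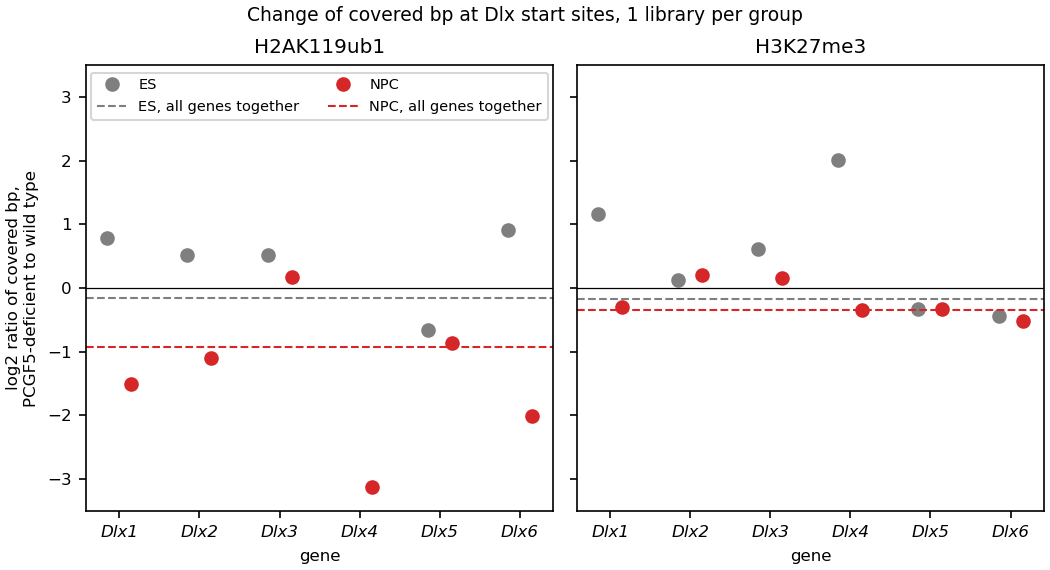
log2 ratio of covered bp in the promoter window, deficient to wild type, for each Dlx gene in ES (grey) and NPC (red), with dashed lines for all genes together. For H2AK119ub1 in NPC 5 of 6 points lie below 0 and for H3K27me3 in NPC all lie within 2-fold of 0. Dlx4 has no ES point for H2AK119ub1, since deficient ES had no peak there.

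Among all genes with a peak in the same list, the Dlx genes were on the broad side in NPC, except Dlx4 for H2AK119ub1 of deficient NPC. In wild type NPC H3K27me3 covered 43.1% to 92.2% of a Dlx window, with a median of 74.0% against 19.4% for all marked genes. Dlx1 stood 62nd and Dlx6 96th of 3549 genes by this share, and Dlx2, the lowest, 761st. In deficient NPC the Dlx windows were covered to 49.5% to 74.6%, with a median of 61.6% against 13.9%. For H2AK119ub1 the median was 37.0% against 5.98% in wild type NPC and 14.9% against 4.96% in deficient NPC. Dlx4 had 2.76% of its window covered there and stood 724th of 944 genes. In wild type ES the medians of the Dlx genes were 13.4% for H2AK119ub1 and 13.0% for H3K27me3, against 4.95% and 8.59% for all marked genes.

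**Figure D4:**
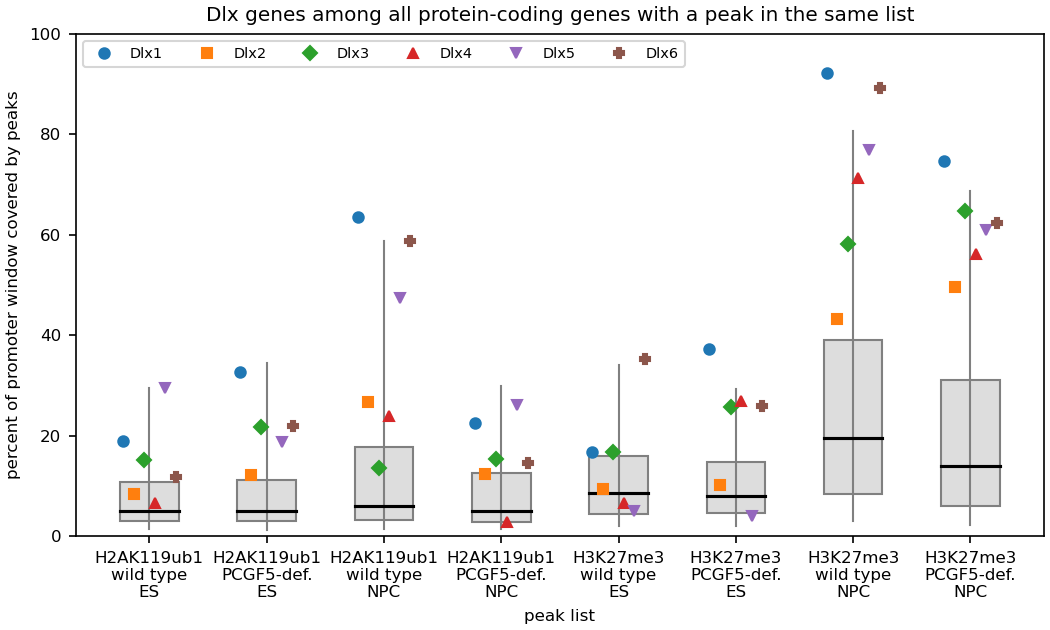
Percent of the promoter window covered by peaks for the 6 Dlx genes (coloured symbols) beside all protein-coding genes with a peak in the same list, drawn as median (black line), quartiles (box) and 5th to 95th percentile (grey line). All 6 Dlx genes lie above the upper quartile in both NPC lists of H3K27me3, and Dlx4 has no symbol for H2AK119ub1 of deficient ES, where it had no peak.

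Over whole spans the 3 pairs separated into 2 broadly marked ones and 1 marked only at its ends. The Dlx1-Dlx2 span, chr2:71366170-71384811, is 18642 bp long, and the 9427 bp between its genes held the marks as well. H3K27me3 covered 19.3% of it in wild type ES, 28.0% in deficient ES, then 86.8% in wild type NPC and 82.5% in deficient NPC. H2AK119ub1 covered 18.2%, 28.5%, 51.4% and 16.1% in the same order. In the interval between the genes H2AK119ub1 covered 43.2% in wild type NPC and 7.88% in deficient NPC, while H3K27me3 covered 85.5% and 80.8%.

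The Dlx5-Dlx6 span, chr6:6813334-6832085, is 18752 bp long. H3K27me3 covered 15.4% of it in wild type ES, 9.42% in deficient ES, then 82.1% in wild type NPC and 67.5% in deficient NPC. H2AK119ub1 covered 14.7%, 17.8%, 67.7% and 17.9%. The 9236 bp between these genes were covered by H2AK119ub1 to 70.5% in wild type NPC and 13.3% in deficient NPC, and by H3K27me3 to 74.0% and 60.0%.

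The Dlx3-Dlx4 span, chr11:94981403-95007577, is 26175 bp long, and its 15159 bp between the genes held no histone peak in 7 of the 8 lists. The exception was a peak of 153 bp in H2AK119ub1 of wild type ES. H3K27me3 covered 6.91%, 6.20%, 29.6% and 29.4% of the span, and H2AK119ub1 7.63%, 6.52%, 4.22% and 4.01%. In wild type NPC H3K27me3 covered 59.6% of the Dlx3 gene and 80.1% of the Dlx4 gene. This was the span in which H2AK119ub1 hardly differed between the NPC genotypes, with 1105 and 1050 bp.

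Set beside the 1699 convergent neighbouring pairs, of which 367 held H3K27me3 in wild type NPC with a median of 4.75% of the span, Dlx1-Dlx2 and Dlx5-Dlx6 had the largest and second largest covered share, and Dlx3-Dlx4 the 20th largest. In deficient NPC their ranks were 1, 4 and 21. For H2AK119ub1 in wild type NPC Dlx5-Dlx6 ranked 1, Dlx1-Dlx2 ranked 3 and Dlx3-Dlx4 ranked 30. In wild type ES the H3K27me3 ranks were 4, 12 and 57 for Dlx1-Dlx2, Dlx5-Dlx6 and Dlx3-Dlx4.

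Peaks no more than 1000 bp apart were joined to see how far the domains ran. H3K27me3 of wild type NPC formed 1 region of 20.6 kb over Dlx1-Dlx2 and 1 of 33.5 kb over Dlx5-Dlx6, and in deficient NPC 1 region of 19.3 kb and 1 of 26.6 kb. The wild type region over Dlx5-Dlx6 was called as 17 peaks and the deficient one as 27. H2AK119ub1 of wild type NPC joined into 1 region of 18.5 kb over Dlx5-Dlx6. In deficient NPC the longest H2AK119ub1 region there measured 2.35 kb, and 4 regions touched the span. Over Dlx1-Dlx2 the longest H2AK119ub1 region was 6.91 kb in wild type NPC and 1.88 kb in deficient NPC, but 3.18 kb in wild type ES and 7.30 kb in deficient ES.

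The positions of the H2AK119ub1 bases were followed across the NPC genotypes. Of 23393 bp under H2AK119ub1 in the 3 spans in wild type NPC, 5404 bp (23.1%) were also covered in deficient NPC and 17989 bp were not. Of those 17989 bp, 14211 bp (79.0%) lay under H3K27me3 in deficient NPC, with 93.3% in Dlx1-Dlx2 and 67.4% in Dlx5-Dlx6. H3K27me3 of deficient NPC covered 82.5% and 67.5% of these whole spans, so in Dlx5-Dlx6 the share was that of the span. The printed intron stretches of Dlx1as and Dlx6 belong to these bases. Conversely, 1991 bp had H2AK119ub1 in deficient NPC and not in wild type NPC. For H3K27me3, 32628 bp were covered in both NPC genotypes, 83.0% of the wild type bases and 91.3% of the deficient bases.

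The marks lay on top of each other in NPC and less so in ES. In the 3 spans H3K27me3 overlapped 13 of 24 H2AK119ub1 peaks in wild type ES, against 38.8% of all H2AK119ub1 peaks in that list. It overlapped 10 of 22 in deficient ES, against 27.6%. In NPC it overlapped 31 of 32 peaks in wild type cells, against 81.3%, and 22 of 22 in deficient cells, against 74.5%. By bases, 93.7% of the H2AK119ub1 of wild type NPC lay under H3K27me3, and 55.7% of the H3K27me3 under H2AK119ub1. In deficient NPC these shares were 97.1% and 20.1%. Of 22 H3K27me3 peaks of wild type ES in the spans, 22 were overlapped by H3K27me3 of wild type NPC, where 43.0% of all peaks of that list were. H3K27me3 covered 86.8% of Dlx1-Dlx2 and 82.1% of Dlx5-Dlx6 in wild type NPC, and 82.5% and 67.5% in deficient NPC. In wild type ES it covered 19.3% and 15.4%. A peak placed anywhere in either span would thus often be overlapped in NPC, and the shares of all peaks do not take this into account.

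Noncoding genes that start inside the spans, named after their values were seen, had less H2AK119ub1 at their starts in deficient than in wild type NPC. Of the protein-coding genes marked in either list, 51.8% had at least 2-fold fewer bases in deficient NPC. The start of Dlx6os1, which overlaps Dlx6 and yields a noncoding RNA of the developing forebrain, had 3290 bp of H2AK119ub1 in wild type NPC and none in deficient NPC, with 140 and 237 bp in the ES lists. H3K27me3 there covered 2926 bp in wild type NPC and 2179 bp in deficient NPC, and none in ES. At the start of Dlx1as the H2AK119ub1 values were 1567 bp and none in NPC, and H3K27me3 covered 3630 and 4297 bp. The start of the long noncoding RNA gene A730090H04Rik, within Dlx4, had 776 and 138 bp of H2AK119ub1 and 3900 and 3884 bp of H3K27me3. Its window overlaps that of Dlx4, and the 138 bp are the same peak as at Dlx4.

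The nearest protein-coding genes on either side were largely free of the marks. Metap1d, a peptidase gene whose end lies 2919 bp from Dlx1, had 321 bp of H2AK119ub1 at its start in wild type NPC and 241 bp of H3K27me3 in deficient NPC. Itga3, an integrin gene beside Dlx3, had 369 bp of H3K27me3 in wild type NPC, and Gm1631, Tac4, Shfm1 and Acn9 had no histone peak. Tac4 and Acn9 had a Flag-PCGF5 peak in NPC, over 202 and 314 bp.

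By the sum of absolute differences in covered bp over the 10 lists, the genes most like Dlx1 were Hoxb8, Pax1 and Tlx1, and those most like Dlx2 were Nell1, Ube2ql1 and Sox21. Dlx3 was most like Wnt2b, Onecut2 and Hrk, and Dlx4 most like Pou4f1, Rasl10a and Ccno. Nearest to Dlx5 were Irx2, En2 and Hoxd13, and nearest to Dlx6 were Hoxd8, Barhl2 and Foxc2. The differences ran from 1393 bp for Dlx4 and Pou4f1 to 5460 bp for Dlx1 and Tlx1.

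Genes known to act with the Dlx genes were looked up in the same way. Of 15 genes of forebrain interneuron specification and function, 14 had H3K27me3 in wild type NPC (15.9% of all genes) and 15 in deficient NPC (15.6%), and the covered bases were 61867 and 52800. H2AK119ub1 covered 25847 and 12094 bp (log2 -1.10), with 8 of the 15 at least 2-fold lower in deficient NPC. Six3, an anterior brain regulator, had 4920 and 2724 bp, and Sp9, an interneuron factor, 1856 and 1693 bp. Gsx1, which acts upstream of Dlx genes, had 3047 and 1572 bp, Lhx6, an interneuron gene downstream of Nkx2-1, 2021 and 1578 bp, and Nkx2-1, a regulator of the ventral forebrain, 3400 and 723 bp. Gad1, which encodes a GABA synthesis enzyme and is a Dlx target, had more in deficient NPC, with 713 and 1050 bp.

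Of 10 genes of the branchial arches and limbs, 8 had H2AK119ub1 in NPC of either genotype. Of these 8, 7 had at least 2-fold less in deficient NPC, and the covered bases were 14468 and 5094 (log2 -1.51). Barx1, a tooth and jaw gene, had 2764 and 1109 bp, and Msx1, a homeobox gene of the arches and limbs, 2083 and 322 bp. None of the 9 with H3K27me3 in NPC of either genotype was 2-fold lower in it, against 33.4% of the marked genes, and the bases were 32943 and 27589. Of 7 genes of bone, placenta and epidermis, 3 had H2AK119ub1 in wild type NPC, and all 3 were at least 2-fold lower in deficient NPC. These were the bone regulator Runx2, with 1041 and 404 bp, and the growth factor genes Bmp2, with 477 bp and none, and Bmp4, with 380 bp and none, named after their values were seen. These H2AK119ub1 counts stand beside the 51.8% of all marked genes that were 2-fold lower.

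Promoters of cell type markers separated only in part by stage. H3K27me3 was called at 1 of 5 ES markers in both ES lists, at 3 of 5 in wild type NPC and at 2 of 5 in deficient NPC. It was called at 3 of 4 NPC markers in both ES lists and in wild type NPC and at 4 of 4 in deficient NPC. The shares of all genes were 13.5% and 13.0% in wild type and deficient ES and 15.9% and 15.6% in NPC. The pluripotency genes Pou5f1 and Nanog had no H3K27me3 peak in ES or NPC. Tbx3 and Esrrb, also expressed in ES, had H3K27me3 over 8745 and 2774 bp in wild type NPC, against none and 1340 bp in wild type ES. Pax6, a regulator of neural progenitors, had H3K27me3 over 17888 bp in wild type NPC and 13796 bp in deficient NPC, more than the 4350 bp of wild type ES. Its window measured 25560 bp, against 5001 bp for Pou3f2, 5037 bp for Nes and 10002 bp for Cdh2. Other NPC markers had more in deficient NPC, Pou3f2 with 1953 and 3510 bp, Nes with 1252 and 2670 bp and Cdh2 with none and 1153 bp. The 4 markers together had 21093 and 21129 bp, totals in which Pax6 weighed most. H2AK119ub1 was called at 1 of these 4 in wild type NPC (5.04% of all genes) and at 4 in deficient NPC (4.22%), with 10494 and 3621 bp. The fall in this total was that of Pax6, with 10494 and 2308 bp. Pou3f2, Nes and Cdh2 had no H2AK119ub1 in wild type NPC and 751, 354 and 208 bp in deficient NPC. Of 4 feeder fibroblast markers 2 had H3K27me3 in wild type ES and 4 in deficient ES, with 1158 and 1844 bp. The part of feeder cells or of cells of other fates in the Dlx values was not tested.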

How the data were processed

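The 10 peak lists were used as deposited, and the 6 input libraries, reads and signal tracks were not used here. Per the study's methods, the authors trimmed reads with Trimmomatic, mapped them on mm9 using Bowtie2 and called peaks with MACS2, for which version 2.1.0 was recorded. Each library has its own list, so that list length varies with depth and background, which are unknown. The authors' files give every peak a −log10 p-value, its −log10 q-value, the fold over background and a score. The methods name default settings for the histone marks and, for PCGF5, a p-value cutoff followed by a q-value cutoff. The threshold of the deposited lists is uncertain. The lowest −log10 p-value was 4.00 to 4.05 in histone lists, and up to 8.81% of the peaks of a histone list had a q-value above 0.05. In the Flag lists the lowest −log10 p-value was 3.62 in ES and 2.94 in NPC, and neither reaches the p-value cutoff named for PCGF5. The deposited score is a rounded multiple of the −log10 p-value in histone lists and of the −log10 q-value in Flag lists, and the spike-in of the study does not enter it. All 86279 peaks lay within the NCBIM37 chromosomes. Start sites were those of protein-coding transcripts in GENCODE M1, of 22372 genes. Covered bp were clipped to windows of 2500 bp on either side, joined where they overlapped, or to the spans. A gene was called changed at a 2-fold difference among genes marked in either list. Convergent pairs were limited to 52350 bp, 2 times the longest Dlx span. Covered bp of 223720 windows were checked against bedtools 2.31.1 and 0 differed, and 200 planted genes in simulated lists were all recovered. Genes named beyond the Dlx genes are the nearest neighbours, the 8 listed genes with the largest summed covered bp, markers and, for each Dlx gene, the 3 genes nearest to it by covered bp, at least 1 Mb away. Runx2, Bmp2, Bmp4 and the noncoding genes were named after their values were seen. Of the marker list, Sox1 was not matched to a protein-coding gene name. The members, lists and alternatives were chosen with earlier results of these data known. With 1 library per group no test was made. Scripts ran in Python 3.11.15 with numpy 2.4.6, and figures were drawn with matplotlib 3.10.9.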

Additional observations from a re-analysis of the deposited data

Results flagged for a closer look

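The difference between the genotypes at the Dlx promoter windows had opposite signs in ES and NPC for both marks. For H2AK119ub1 the log2 ratio of covered bp, PCGF5-deficient to wild type, was 0.31 in ES and -1.36 in NPC, a difference of -1.67. For H3K27me3 it was 0.58 in ES and -0.24 in NPC, a difference of -0.82. Over all genes together the ratios were -0.15 in ES and -0.93 in NPC for H2AK119ub1, and -0.18 and -0.35 for H3K27me3. The H3K27me3 ratio of the Dlx genes thus lay above that of all genes at both stages. Each ratio compares 1 library with 1 library, so neither difference was tested. The H2AK119ub1 ratio of ES turned negative with windows of 1000 bp, and then both stages had the same sign.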

How the results depend on the processing

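Alternatives were a peak centre within 2500 bp, a window of 1000 bp, the higher-scoring 50% of each list, a −log10 q-value of at least 2, lists of a mark trimmed to equal length by score, the most 5′ start site alone, spans extended by 2500 bp and an overlap of at least 50% of a peak. Of 160 values under these alternatives, 147 kept their sign and lay within 1.5 times the reported value, log2 ratios being compared as folds, 11 moved further and 2 changed sign. With windows of 1000 bp the log2 ratio of H2AK119ub1 between deficient and wild type ES was -0.62 and that of NPC to ES was 0.61 in deficient and 0.81 in wild type cells. With the higher-scoring 50%, the H2AK119ub1 log2 ratio was -1.96 for PCGF5-deficient to wild type NPC and -0.87 for NPC to ES in PCGF5-deficient cells. Those peaks left 5086 bp of H2AK119ub1 in the spans in wild type ES, 6138 bp in PCGF5-deficient ES and 4035 bp in PCGF5-deficient NPC, and lists of equal length left 4468 and 6572 bp in wild type and PCGF5-deficient ES. Under the 50% overlap H3K27me3 overlapped 33.3% of the H2AK119ub1 peaks in wild type ES and 27.3% in PCGF5-deficient ES, and the higher-scoring 50% gave 27.3% for PCGF5-deficient ES. Shorter lists hold fewer bases by construction; otherwise the cause was not tested. No paired analysis was possible because each group held 1 library and no test was made. Unknown depth limits what a missing peak can show.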

Other observations

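In the 250 bp before and 50 bp after the most 5′ protein-coding start, the homeodomain core motif TAATTA (identical on both strands) was found in 0 of 6 Dlx promoters and in 4.82% of all 22372, both strands being searched for each motif. TATAAA was found in 1, that of Dlx6, against 13.4% of all promoters. CCAAT was found in 5, all but Dlx6, against 37.9% of all promoters. In the whole spans TAATTA occurred 13 times in Dlx1-Dlx2, 4 times in Dlx3-Dlx4 and 6 times in Dlx5-Dlx6, or 0.697, 0.153 and 0.320 per kb. A match is a run of letters and shows no binding. The promoters of Dlx1 and Dlx6 held 3 and 4 CpG and that of Dlx2 held 29, against a median of 12 over all promoters.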
